A study of Homo sapiens with 12 samples.

Results

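HK-2 cells given recombinant S100A9 were compared directly with HK-2 cells given recombinant S100A8, to describe which genes and functions tell the subunits apart. The comparison used 6 of the 12 libraries of the study, 3 after S100A9 and 3 after S100A8, chosen by their labelled treatment. HK-2 is an immortalised wild-type human line of kidney tubule epithelium. Cells were grown in DMEM with fetal bovine serum and exposed for 48 h, and poly(A)-selected RNA was sequenced. The protein dose is printed in the labels as 5 mg/mL for both subunits, a unit for which no second source was at hand. The remaining libraries were 3 of cells given a matching amount of PBS and 3 of cells given an S100A8/S100A9 preparation at the same printed dose, and they are used below as reference levels. Whether replicates are separate cultures is not stated in the labels, and the p-values therefore reflect the spread of these libraries only, possibly technical.

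S100A8 and S100A9 are small calcium-binding proteins made in large amounts by neutrophils and monocytes, which release them at sites of inflammation. The pair forms the heterodimer calprotectin, and extracellular forms are known ligands of the receptors TLR4 and RAGE. In epithelial cells such receptors can signal to NF-kB, a transcription factor that induces cytokines, chemokines, acute-phase proteins and its own inhibitors.

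Library totals were 16398067 to 17191198 counts after S100A8 and 17153820 to 19541684 after S100A9, within the range of all 12 libraries (15882193 to 20748334). The labelled cell type was only partly matched by its markers. Epithelial keratins and EPCAM summed to 1189 to 1238 normalised counts scaled to library size (CPM) after S100A8 and 1129 to 1180 after S100A9. Of 18 proximal tubule markers, 9 were abundant enough to test, mainly PAX8 and DPP4, while the organic anion transporters SLC22A6 and SLC22A8 had 0 counts in all 12 libraries and megalin (LRP2) fell below the filter. Summed markers overlapped between the groups for proximal tubule (633 to 692 after S100A8, 635 to 702 after S100A9), leukocytes (86.1 to 97.7 and 82.7 to 103, nearly all of it CD68), endothelium (1.52 to 1.92 and 1.70 to 2.87) and fibroblasts (85.4 to 103 and 81.3 to 98.2). The leukocyte genes FCGR3A and TYROBP and the endothelial EMCN were at 0 in all 12 libraries. Transcripts of S100A8 and S100A9 themselves were at 0 counts in every library, a level that leaves room for at most 0.189 CPM (3 counts) in the smallest of the libraries.

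The promoter sequences below belong to some of the genes that passed the test, namely LCN2, IL6, CCL20, NFKBIA and CXCL8, which were higher after S100A9, and ID2, which was lower. They do not represent all passing genes. SOD2, which had the smallest p, and CSF2 had windows without a match to the NF-kB consensus and are not printed. Each is the run of 250 bases before the RefSeq transcription start, 5′ to 3′ in the direction of the gene (RefSeq, GRCh38.p14): LCN2 at chr9:128149203-128149452, IL6 at chr7:22726950-22727199, CCL20 at chr2:227813592-227813841, CXCL8 at chr4:73740319-73740568 and ID2 at chr2:8681806-8682055 on the plus strand, and NFKBIA at chr14:35404750-35404999 on the minus strand. Capitals mark matches to the NF-kB consensus (10 letters) or to the AP-1 motif TGANTCA, searched on both strands. No match to one motif overlapped a match to the other in these runs.
LCN2: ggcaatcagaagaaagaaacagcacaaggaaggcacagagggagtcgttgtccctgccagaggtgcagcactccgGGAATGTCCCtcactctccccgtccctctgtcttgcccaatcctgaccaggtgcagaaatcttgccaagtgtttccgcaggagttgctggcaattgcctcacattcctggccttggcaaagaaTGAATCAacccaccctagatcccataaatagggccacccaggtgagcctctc
IL6: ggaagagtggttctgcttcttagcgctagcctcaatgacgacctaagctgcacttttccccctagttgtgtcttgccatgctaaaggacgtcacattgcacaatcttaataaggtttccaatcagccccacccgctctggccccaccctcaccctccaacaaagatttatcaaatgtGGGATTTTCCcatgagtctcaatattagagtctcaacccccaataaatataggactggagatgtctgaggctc
CCL20: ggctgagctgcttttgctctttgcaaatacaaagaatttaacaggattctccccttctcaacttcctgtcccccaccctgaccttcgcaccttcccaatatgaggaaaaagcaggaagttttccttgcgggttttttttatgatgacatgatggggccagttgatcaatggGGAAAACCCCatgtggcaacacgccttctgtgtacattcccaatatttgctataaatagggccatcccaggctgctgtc
NFKBIA: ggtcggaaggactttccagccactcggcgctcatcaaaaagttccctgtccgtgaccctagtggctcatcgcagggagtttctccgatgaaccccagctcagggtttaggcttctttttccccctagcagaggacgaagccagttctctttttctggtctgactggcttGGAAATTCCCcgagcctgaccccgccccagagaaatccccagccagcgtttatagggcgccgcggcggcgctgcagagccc
CXCL8: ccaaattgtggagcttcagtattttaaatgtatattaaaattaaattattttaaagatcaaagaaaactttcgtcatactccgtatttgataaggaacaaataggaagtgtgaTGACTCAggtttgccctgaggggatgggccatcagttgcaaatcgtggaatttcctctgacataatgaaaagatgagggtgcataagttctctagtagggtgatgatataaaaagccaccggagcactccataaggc
ID2: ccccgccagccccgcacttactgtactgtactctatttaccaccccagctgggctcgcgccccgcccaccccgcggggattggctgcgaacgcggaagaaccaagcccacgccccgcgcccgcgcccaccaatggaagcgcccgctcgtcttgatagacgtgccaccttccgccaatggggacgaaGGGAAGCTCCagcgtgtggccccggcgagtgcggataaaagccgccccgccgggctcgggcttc

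Of the 25 genes that passed the test, 19 had a RefSeq window of 300 bases (250 before the start and 50 from it). The NF-kB consensus occurred in the window of 10 of the 17 higher genes (58.8%) and of 1 of the 2 lower genes, against 17.4% of the 10827 tested genes with a window. In IL6 the match GGGATTTTCC began 73 bases before the start, in CCL20 GGAAAACCCC began 79 bases before it, in NFKBIA GGAAATTCCC 81 bases before it and in LCN2 GGAATGTCCC 175 bases before it, the last 3 on the minus strand of the window. Of the other 6 higher genes, ELF3 held GGAAATCCCC, PDZK1IP1 GGGACTCTCC, ITGA1 GGGGGATTCC, CFB GGGGCCCTCC, ZC3H12C GGAGGGCCCC and GDF15 GGAGCGCCCC. The lower gene ID2 held GGGAAGCTCC. AP-1 matches were found in 2 of the 17 higher genes (11.8%, against 7.19% of tested genes), TGACTCA in CXCL8 and TGAATCA in LCN2. The letters of the NF-kB consensus were not found in the windows of the other 7 higher genes, SOD2 (4 windows), CXCL8, CSF2, WWC1, DRAM1, EPHB2 and ZC3H12A, nor in that of the lower gene DDX60L, which says nothing about binding of the factor. Matches are descriptions of sequence and were not related to binding here.

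Cells given S100A9 held more transcript of the chemoattractants CXCL8 and CCL20, the cytokines IL6 and CSF2, the acute-phase genes LCN2, SAA1 and SAA2, the complement genes C3 and CFB, and SOD2 than cells given S100A8. C4B passed too, but not when summed with C4A, and the other 14 passing genes had log2 differences of at most 0.64 in size (PDZK1IP1). Of 13512 genes tested with edgeR's quasi-likelihood test and Benjamini-Hochberg adjustment, 25 passed at an adjusted p of 0.05 (0.185%), with 23 higher after S100A9 (0.170%) and 2 lower (0.0148%). Among them 8 differed by at least 2-fold and 13 by less than 1.5-fold. In each of the 25 the 3 S100A9 libraries lay entirely beyond the 3 S100A8 libraries, a separation that 12.5% of all tested genes also showed (6.41% above and 6.09% below). The median log2 difference over all genes was 0.00, and 50.2% of them lay above 0. Without S100A8 replicate 2 or without S100A9 replicate 3 the count was 14 in each case. The last gene inside the threshold was C4B (adjusted p = 0.045) and the first outside was CPD, a carboxypeptidase (0.18, adjusted p = 0.056, and 0.024 without S100A9 replicate 1). The collagen prolyl hydroxylase gene P4HA2 was also among the nearest outside, at 43.4 and 53.2 CPM (0.30, adjusted p = 0.083, and 0.012 without S100A9 replicate 1). CPD and P4HA2 passed with no other library left out.

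**Figure D1:**
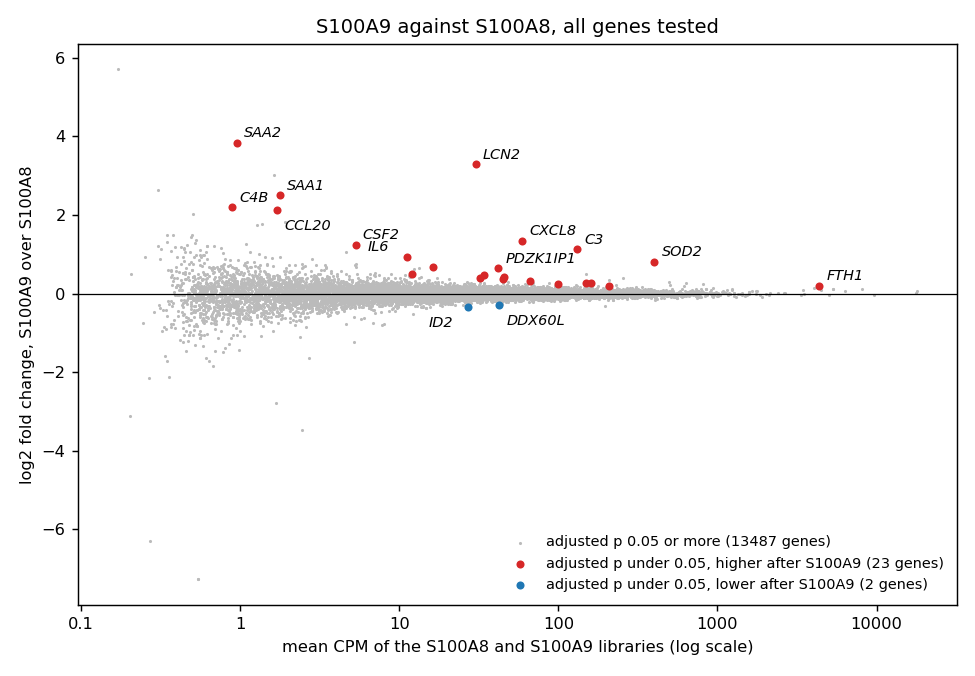
Log2 fold change of S100A9 over S100A8 (vertical axis) against the mean level in CPM over both groups (horizontal axis, log scale) for 13512 genes. The 23 higher genes run from WWC1 at 0.20 to SAA2 at 3.85, while the 2 lower genes, ID2 and DDX60L, lie at -0.35 and -0.29.

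The cytokine and chemokine list had 4 higher members among 26 tested, where 0.170% of all tested genes were higher. The list was chosen with earlier results of these data known. CXCL8, a chemoattractant for neutrophils, stood at 35.0, 33.2 and 32.2 CPM in the S100A8 libraries and at 81.0, 99.5 and 75.4 CPM in the S100A9 libraries. The S100A8 values lay within 3 CPM of each other and far below the lowest S100A9 library, with a log2 difference of 1.35 (SE 0.10, adjusted p = 6.0e-06). CCL20, which attracts CCR6-bearing lymphocytes and dendritic cells, was near the detection limit after S100A8 at 0.547, 0.698 and 0.639 CPM and reached 2.11, 3.24 and 2.96 CPM after S100A9 (log2 difference 2.13, SE 0.32, adjusted p = 0.00051). This rested on 32 counts in the S100A8 libraries together and 153 in the S100A9 libraries. As these are bulk libraries, more cells expressing a gene and more RNA per cell cannot be told apart.

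IL6, a cytokine that drives the acute-phase response, was at 8.39, 7.79 and 6.97 CPM after S100A8 and at 15.9, 15.5 and 12.95 CPM after S100A9. All S100A9 libraries were higher, by 0.94 on the log2 scale (SE 0.13, adjusted p = 0.00020). CSF2, which encodes the myeloid growth factor GM-CSF, was at 2.49, 3.20 and 3.77 CPM against 7.67, 7.72 and 7.03 CPM. The S100A9 libraries were close together and well above the highest S100A8 library, and the log2 difference was 1.24 (SE 0.16, adjusted p = 0.00012). These 4 genes passed with each of the 6 libraries left out in turn.

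In all, 4 of 26 tested cytokine and chemokine genes were higher and 0 lower, with a list median of 0.13 beside 0.00 over all genes. At an unadjusted p under 0.05, 3.72% of all tested genes were higher and 3.28% lower. A further 6 listed genes were higher at that level but did not pass adjustment, and 19 listed genes were too low to test. Among these 6, the neutrophil chemokine CXCL2 stood at 9.97, 11.2 and 8.30 CPM after S100A8 and 12.8, 17.3 and 15.0 after S100A9 (log2 difference 0.62, 95% interval 0.28 to 0.96, adjusted p = 0.26), and its relative CXCL5 at 4.13 and 6.54 CPM on average (0.67, adjusted p = 0.26). CSF1, the macrophage growth factor, was at 92.3, 87.1 and 94.4 CPM against 108, 104 and 115 CPM (0.25, SE 0.06, adjusted p = 0.083). On the 6 libraries alone CSF1 passed (adjusted p = 0.027). Of 31 tested cytokine and chemokine receptor genes 0 passed, and 0 had an unadjusted p under 0.05 (median 0.01).

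Acute-phase proteins held the widest differences. LCN2 encodes NGAL, which binds iron-carrying siderophores and is used as a marker of tubular injury. Its level was 4.68, 6.40 and 5.75 CPM after S100A8 and 36.0, 73.8 and 54.9 CPM after S100A9. The S100A9 libraries were spread widely, with replicate 1 lowest, yet each was far above every S100A8 library (log2 difference 3.29, SE 0.33, adjusted p = 0.0063). Replicate 1 was lowest and replicate 2 highest in all 4 groups. The PBS libraries were at 4.03, 8.65 and 6.06 CPM, and those of the S100A8/S100A9 preparation at 4.22, 5.80 and 4.97 CPM. Left without S100A8 replicate 2 or 3 the adjusted p was 0.059 or 0.057 with log2 differences of 3.40 and 3.31, and on the 6 libraries alone it was 0.21.

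SAA1 and SAA2 encode serum amyloid A, the lipoprotein-borne acute-phase reactant. SAA1 was at 0.547, 0.582 and 0.464 CPM after S100A8 and 3.10, 3.19 and 2.80 CPM after S100A9 (log2 difference 2.50, SE 0.31, adjusted p = 5.2e-05). SAA2 had 2, 1 and 3 counts after S100A8 and 30, 34 and 34 after S100A9, a ratio per library total of 15.1 with a counting interval of 6.69 to 42.1 (adjusted p = 0.00012). Reads of these near-identical genes may be split between them, so the pair was also summed. The sum was 0.669, 0.640 and 0.639 CPM against 4.86, 4.94 and 4.67 CPM, tight in both groups, with a log2 difference of 2.88 (SE 0.28, 95% interval 2.30 to 3.46, adjusted p = 1.0e-06).

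Of 10 tested acute-phase genes 3 were higher (LCN2, SAA1, SAA2) and 0 lower, with a median of 0.17. The list holds 23 genes, and the rest were too low to test. SAA1 and SAA2 met the filter only through the S100A9 libraries, with 4 to 11 and 1 to 10 counts in the libraries of the other groups. The share and the median therefore depend on the filter. The protease inhibitor SERPINA1 lay just outside the threshold, at 33.3, 27.7 and 25.4 CPM after S100A8 and 37.3, 36.1 and 35.8 after S100A9 (log2 difference 0.34, adjusted p = 0.083). S100A8 replicate 1 was its highest S100A8 library, and without it the difference was 0.45 with an adjusted p of 0.0034. SERPINA1 passed with no other library left out. Among 8 tested antimicrobial and innate recognition genes 0 passed, with 2 higher and 1 lower at an unadjusted p under 0.05. The fungal glycolipid receptor gene CLEC4E was at 5.76 and 8.03 CPM on average (0.48, adjusted p = 0.39).

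**Figure D2:**
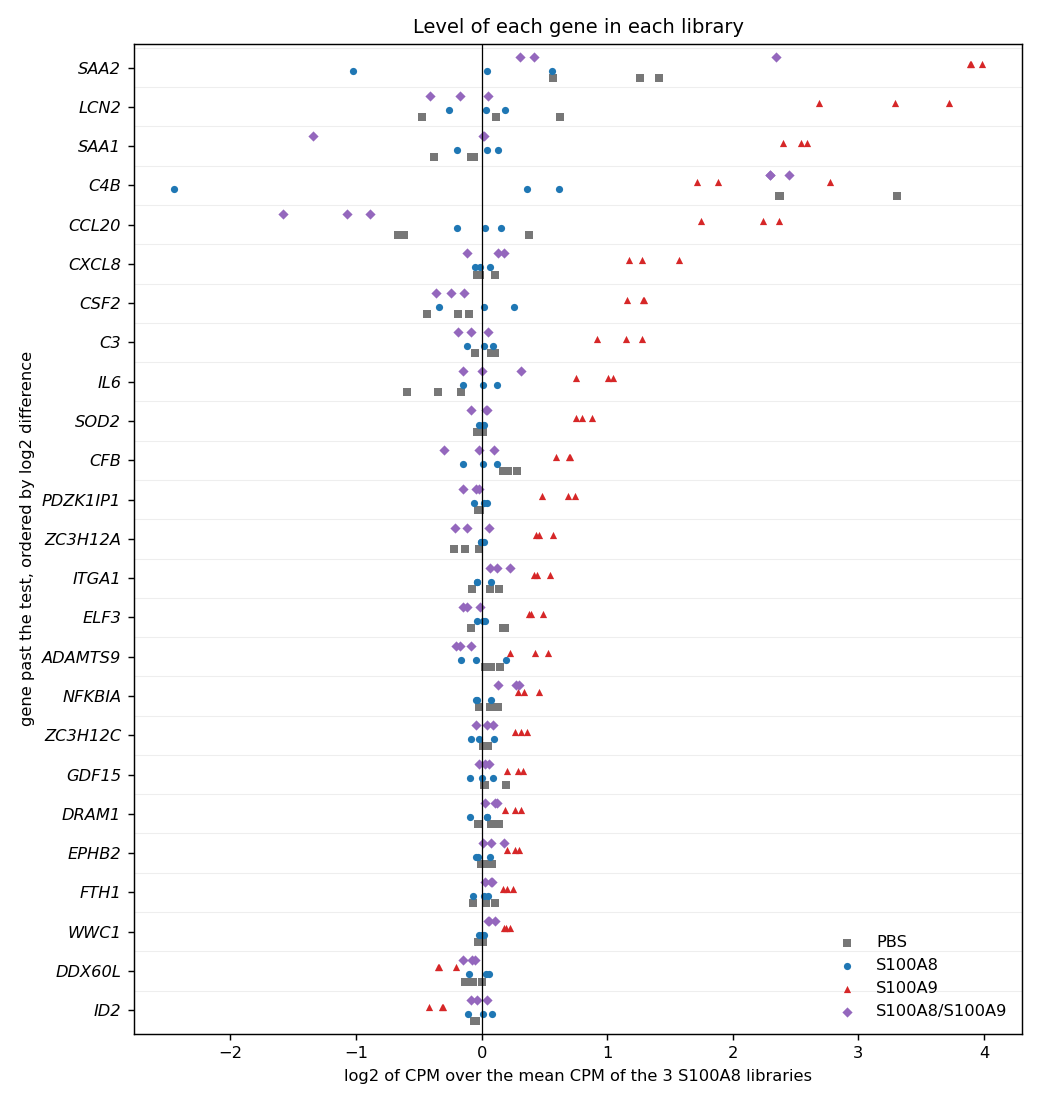
Level of each of the 25 genes in each of the 12 libraries, as log2 of CPM over the mean of the S100A8 libraries (horizontal axis), with genes ordered by their log2 difference. For every gene the 3 S100A9 triangles lie beyond the 3 S100A8 circles, and for C4B the PBS and S100A8/S100A9 libraries also lie to the right of S100A8.

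Complement genes were represented by C3 and CFB, the central component and the factor B protease of the alternative pathway. C3 was at 75.7, 87.7 and 83.4 CPM after S100A8 and 155, 200 and 183 CPM after S100A9. Each S100A9 library was well above the S100A8 range, and the log2 difference was 1.12 (SE 0.10, adjusted p = 0.00047). CFB was at 11.3, 12.7 and 13.7 CPM against 18.9, 20.4 and 20.5 CPM (log2 difference 0.66, SE 0.10, adjusted p = 0.00054). Its exons share bases with C2 and a read-through gene of the same table, so some of its reads could be assigned otherwise. With limma on log2(FPKM + 1) the CFB difference was 0.49 with an adjusted p of 0.58. Both genes passed with each library left out in turn.

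C4B also passed, but its sum with the near-identical neighbour C4A did not. C4B held 8, 1 and 7 counts after S100A8 and 20, 42 and 19 after S100A9 (log2 difference 2.20, SE 0.47, adjusted p = 0.045). C4A held 47, 58 and 66 counts after S100A8 and 26, 28 and 47 after S100A9, in the opposite direction (-0.86, SE 0.26, adjusted p = 0.35). The share of the pair given to C4B was 14.5%, 1.69% and 9.59% in the S100A8 libraries, below every other library of the study, and 43.5%, 60% and 28.8% after S100A9. In the PBS libraries it was 50%, 66.7% and 38.7%. Summed, the pair stood at 3.69 ± 0.53 CPM after S100A8 and 3.31 ± 0.53 CPM after S100A9 (SD, n = 3), a log2 difference of -0.15 (95% interval -0.55 to 0.24). The call for C4B was lost with any 1 of the 6 libraries left out, with adjusted p of 0.058 to 0.34 in those fits, and on the 6 libraries alone (0.079). Across the list, 3 of 18 tested complement genes were higher and 0 lower (median 0.04).

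**Figure D3:**
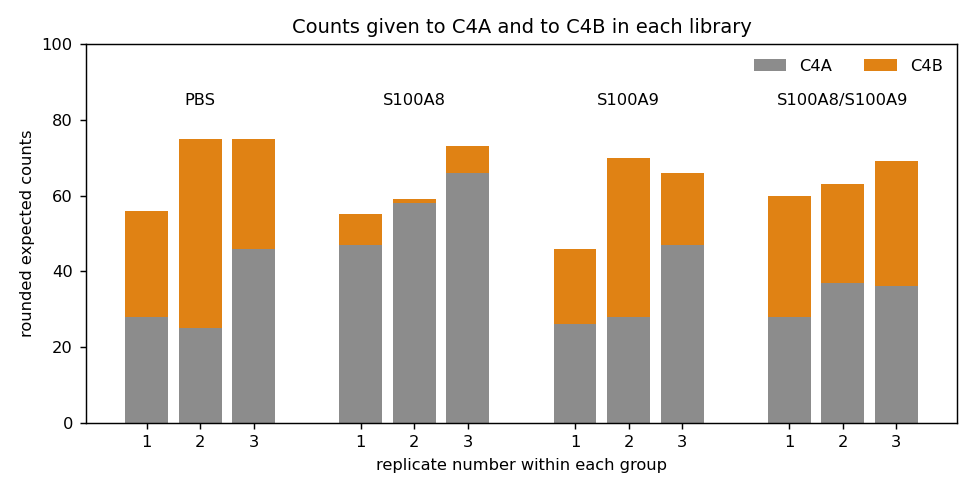
Rounded expected counts given to C4A (grey) and C4B (orange) in each of the 12 libraries, stacked by library within the 4 groups. In the S100A8 libraries C4B takes between 1.69% and 14.5% of the pair, whereas the total height overlaps between groups.

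SOD2, the manganese superoxide dismutase of mitochondria and a classic NF-kB target, had the smallest p of all genes. The ID on chr6:159669057-159745186 stood at 295, 287 and 293 CPM after S100A8 and 492, 536 and 507 CPM after S100A9. The S100A8 libraries were almost level and the S100A9 libraries lay far above them, and the log2 difference was 0.81 (SE 0.04, adjusted p = 3.7e-13). Its exons share 845 bases with a second SOD2 ID of the table (ENSG00000285441) and 298 with WTAP on the opposite strand, so some reads could be assigned otherwise. The second ID was at 0.353 and 0.603 CPM on average (0.76, SE 0.49, adjusted p = 0.80). Among 28 tested antioxidant IDs SOD2 on chr6:159669057-159745186 was the 1 that passed, and the median was 0.02. Glutathione peroxidase GPX1 was at 99.6 and 111 CPM (0.16, adjusted p = 0.23).

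Iron handling gave 1 call beside LCN2. FTH1, the heavy chain of ferritin, was at 4035 ± 173 CPM after S100A8 and 4652 ± 134 CPM after S100A9 (SD, n = 3; log2 difference 0.21, SE 0.04, adjusted p = 0.017). Ferritin has many processed pseudogenes, and FTH1 exons share bases with BEST1 on the opposite strand, so its count is uncertain to that extent. It no longer passed without S100A8 replicate 1 or 2 or S100A9 replicate 1 or 3 (adjusted p of 0.072 to 0.21). Of 17 tested iron genes 2 were higher, LCN2 and FTH1, and 0 lower (median 0.06), and the metal ion transporter SLC11A2 was at 108 and 121 CPM (0.17, adjusted p = 0.16). Of 11 tested metallothionein and zinc transporter genes 0 passed, and 3 were higher at an unadjusted p under 0.05. MT2A, a metallothionein, was at 474, 438 and 476 CPM against 522, 572 and 534 CPM (log2 difference 0.23, SE 0.05, adjusted p = 0.11), and passed with DESeq2's Wald test (0.00989) and on the 6 libraries alone (0.016).

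NFKBIA, ZC3H12A and ZC3H12C were higher by small amounts. NFKBIA, which encodes the inhibitor that holds NF-kB in the cytoplasm, was at 41.4, 38.1 and 38.4 CPM after S100A8 and 54.0, 48.1 and 49.8 CPM after S100A9 (log2 difference 0.36, SE 0.06, adjusted p = 0.0049). Without S100A8 replicate 2 or 3 or S100A9 replicate 1 its adjusted p was 0.059, 0.063 or 0.061. ZC3H12A encodes regnase-1, an RNase that degrades IL6 and other cytokine mRNAs. It was at 10.2, 10.0 and 9.98 CPM against 13.6, 14.9 and 13.8 CPM (0.49, SE 0.10, adjusted p = 0.038), and did not pass with any 1 of the 6 libraries left out (0.070 to 0.21) or on the 6 libraries alone (0.057). Its relative ZC3H12C was at 63.0, 58.0 and 55.3 CPM against 72.9, 70.6 and 75.6 CPM (0.31, SE 0.05, adjusted p = 0.0048). The difference in ZC3H12C held except without S100A8 replicate 3 or S100A9 replicate 3, where the adjusted p was 0.097 or 0.088.

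Among 40 tested IDs of NF-kB feedback and survival targets 3 were higher (SOD2, NFKBIA and ELF3) and 0 lower. Their median was 0.10, and 14 were higher and 1 lower at an unadjusted p under 0.05. TNIP1 and TNFAIP2, both induced by NF-kB, had log2 differences of 0.23 and 0.20 (adjusted p = 0.17 and 0.22). Over all genes 3.72% were higher and 3.28% lower at that unadjusted level. Of the 16 subunits and kinases of the pathway 0 passed. The 1 with an unadjusted p under 0.05 was the kinase gene MAP3K14, which lay at 30.6 and 25.9 CPM (-0.24, adjusted p = 0.36). Of 18 tested mRNA decay factors 2 were higher, ZC3H12A and ZC3H12C, and 0 lower, with a median of -0.02.

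PDZK1IP1, ELF3 and ITGA1 were also higher. PDZK1IP1 encodes MAP17, a membrane protein of proximal tubule cells. It stood at 31.3, 33.7 and 33.1 CPM after S100A8 and 45.7, 54.8 and 52.6 CPM after S100A9 (log2 difference 0.64, SE 0.07, adjusted p = 3.0e-06). ELF3, an epithelial ETS transcription factor, was at 37.9, 39.5 and 39.1 CPM against 50.6, 51.2 and 54.5 CPM, groups that were each tight and well apart (0.42, SE 0.07, adjusted p = 0.00091). ITGA1, the collagen-binding integrin alpha-1 chain, was at 30.0, 27.7 and 27.7 CPM against 38.7, 37.9 and 41.5 CPM (0.47, SE 0.07, adjusted p = 0.00051). The 3 genes passed with each library left out in turn. ITGA1 was the 1 of 17 tested integrin genes that passed, and its exons share bases with PELO.

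The Hippo pathway adaptor WWC1 was at 197, 195 and 193 CPM after S100A8 and 223, 220 and 228 CPM after S100A9 (log2 difference 0.20, SE 0.04, adjusted p = 0.011). EPHB2, an ephrin receptor kinase, was at 95.8, 88.6 and 89.6 CPM against 110, 105 and 112 CPM (0.26, SE 0.05, adjusted p = 0.016). ADAMTS9, a protease of the extracellular matrix, was at 24.7, 31.6 and 26.8 CPM against 32.4, 39.9 and 37.2 CPM, so that S100A8 replicate 2 nearly reached the lowest S100A9 library (0.40, SE 0.08, adjusted p = 0.037). These calls were lost in 3 of 6 left-out fits for WWC1 (without S100A8 replicate 2 or 3 or S100A9 replicate 3, adjusted p of 0.068 to 0.16), and in 4 for EPHB2 (all but S100A8 replicate 1 and S100A9 replicate 2, 0.080 to 0.21) and for ADAMTS9 (all but S100A8 replicate 2 and S100A9 replicate 1, 0.19 to 0.26, and 0.17 on the 6 libraries alone).

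Of 30 tested tubular injury and progenitor genes 3 were higher (LCN2, PDZK1IP1 and GDF15) and 0 lower, while 5 were lower at an unadjusted p under 0.05, and the median was 0.00. One of these 5 was KRT7, a keratin of simple epithelia, at 94.4, 96.6 and 95.4 CPM after S100A8 and 89.1, 81.2 and 80.6 CPM after S100A9 (-0.19, SE 0.05, adjusted p = 0.14). S100A9 replicate 1 was the highest of its group, and without it the difference was -0.24 with an adjusted p of 0.043. KRT7 passed with no other library left out. Among the 9 tested keratins 0 passed, 3 were lower at an unadjusted p under 0.05, and 8 of 9 lay below 0 with a median of -0.11. The summed epithelial markers given above include KRT7 and KRT19, and their ranges did not overlap between the groups. Of 36 junction genes WWC1 was the 1 that passed. Of 24 tested matrix protease genes ADAMTS9 was the 1 that passed, and of 15 tested thrombin receptor, tissue factor and plasminogen genes 0 passed. The 1 of them with an unadjusted p under 0.05 was the thrombin receptor F2R, at 237, 234 and 233 CPM against 207, 201 and 218 CPM (-0.17, SE 0.04, adjusted p = 0.11), and DESeq2's Wald test gave an adjusted p of 0.032.

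GDF15 and DRAM1 were higher by small amounts. GDF15, a stress-induced cytokine of the TGF-beta family and a p53 target, was at 144, 135 and 153 CPM after S100A8 and 166, 177 and 181 CPM after S100A9 (log2 difference 0.28, SE 0.05, adjusted p = 0.011). DRAM1, a lysosomal regulator of autophagy, was at 140, 127 and 140 CPM against 163, 154 and 169 CPM (0.26, SE 0.05, adjusted p = 0.014). S100A8 replicate 2 was the lowest library for both, and without it their adjusted p was 0.17 and 0.21. GDF15 also failed to pass without S100A8 replicate 1, S100A9 replicate 2 or S100A9 replicate 3 (0.061 to 0.17), and DRAM1 without S100A9 replicate 1 or 3 (0.070 and 0.23). Of 25 tested genes on the list of p53 targets, which does not hold DRAM1, 1 was higher, GDF15. On that list 18 of 25 lay above 0, with a median of 0.09. The cytosolic heat shock and co-chaperone genes had 0 of 29 past the test, though 7 were higher at an unadjusted p under 0.05 (median 0.07). The share of all genes higher at that unadjusted level was 3.72%. The small heat shock gene CRYAB stood at 23.4, 22.8 and 25.1 CPM against 31.1, 28.3 and 28.6 CPM (0.30, adjusted p = 0.15). Of 25 unfolded protein and stress response genes 0 passed, with 2 higher and 1 lower at that unadjusted level.

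The 2 lower genes were ID2 and DDX60L. ID2 encodes an inhibitor of basic helix-loop-helix transcription factors and is a target of BMP signalling. It was at 28.3, 32.3 and 30.8 CPM after S100A8 and 24.7, 22.8 and 24.4 CPM after S100A9. Every S100A9 library lay below every S100A8 library (log2 difference -0.35, SE 0.07, adjusted p = 0.021). Its relatives ID3 and ID1 lay in the same direction without passing, ID3 at 12.8, 16.7 and 13.9 CPM against 9.60, 11.6 and 9.11 CPM (-0.51, SE 0.13, adjusted p = 0.15) and ID1 at 24.8 and 20.3 CPM on average (-0.29, adjusted p = 0.38). Of 39 tested ID, BMP and TGF-beta genes 1 was lower and 0 higher, with 27 of 39 below 0 and a median of -0.05. The ID2 call was lost without S100A8 replicate 2 or 3 or S100A9 replicate 2 or 3 (adjusted p of 0.11 to 0.25), on the 6 libraries alone (0.057) and with limma on log2(FPKM + 1) (0.25).

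DDX60L, an interferon-inducible helicase, was at 48.1, 48.8 and 43.8 CPM after S100A8 and 36.9, 40.6 and 37.2 CPM after S100A9 (-0.29, SE 0.06, adjusted p = 0.038). It did not pass without S100A8 replicate 1 or 2 or S100A9 replicate 1 or 3 (adjusted p of 0.13 to 0.34), on the 6 libraries alone (0.070) or with limma on log2(FPKM + 1) (0.80). Among 53 tested interferon response genes it was the 1 that passed, with 44 of 53 below 0 and a median of -0.05. IFI44L was at 15.8, 16.4 and 17.3 CPM against 13.2, 15.1 and 10.3 CPM (-0.36, adjusted p = 0.37) and IFITM1 at 3.00 and 1.86 CPM (-0.69, adjusted p = 0.40). Of 20 genes of MHC class I presentation 0 passed, with 3 higher and 2 lower at an unadjusted p under 0.05. Of 22 of JAK-STAT3 signalling 0 passed, with 4 higher and 0 lower at that level. The shares over all genes at that level were 3.72% higher and 3.28% lower.

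**Figure D4:**
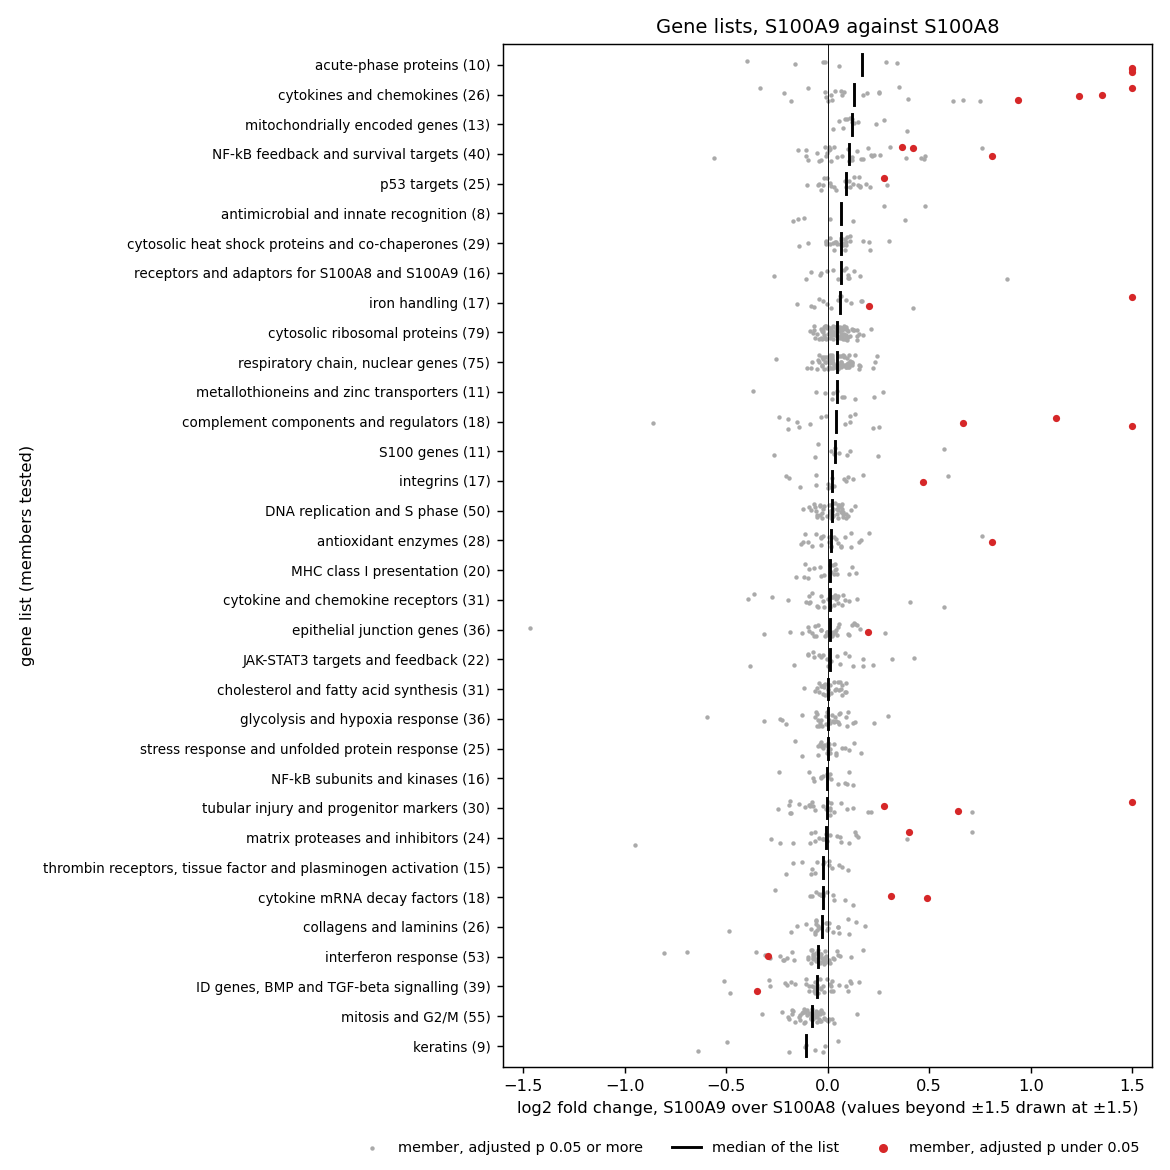
Log2 fold change of S100A9 over S100A8 (horizontal axis, values beyond 1.5 drawn at the edge) for the tested members of each gene list, with the list median as a bar and passing members in red. Medians run from -0.11 for keratins to 0.17 for acute-phase proteins, and passing members are few in each list. The acute-phase list includes SAA1 and SAA2, which met the filter only through the S100A9 libraries, so its median depends on the filter.

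The large lists of proliferation and housekeeping genes held no passing member. Of 55 mitosis and G2/M genes 0 passed, but 51 of 55 lay below 0 (median -0.08) and 14 were lower at an unadjusted p under 0.05. Over all genes 50.2% lay above 0, and 3.28% were lower at that unadjusted level. CCNB1, the mitotic cyclin, was at 96.1, 106 and 99.8 CPM after S100A8 and 90.7, 85.9 and 87.1 after S100A9 (-0.20, SE 0.05, adjusted p = 0.15), with PBS libraries averaging 91.1 CPM. Against PBS the list median was 0.08 after S100A8 and 0.00 after S100A9, comparisons that share the PBS libraries. The kinase gene AURKA had a log2 difference of -0.19 (adjusted p = 0.17). Of 50 DNA replication and S phase genes 0 passed, and 1 was lower at an unadjusted p under 0.05 (median 0.02).

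The 13 mitochondrially encoded genes all lay above 0 (median 0.12) without any passing, and 6 had an unadjusted p under 0.05. MT-ND4, a complex I subunit, was at 7765 and 8490 CPM on average (0.13, adjusted p = 0.42). The nuclear genes of the respiratory chain (0 of 75 past the test, 4 higher at an unadjusted p under 0.05, median 0.04) and the cytosolic ribosomal proteins (0 of 79 past the test, 6 higher at that level, median 0.05) also held more members above 0 than below, 58 of 75 and 58 of 79. Of 36 glycolysis and hypoxia genes 0 passed (2 higher and 4 lower at an unadjusted p under 0.05), as of 31 cholesterol and fatty acid genes (0 and 1) and of 26 collagens and laminins (2 and 2). In all, 23 of the 25 genes that passed belonged to the lists, which hold 926 distinct tested genes, and DRAM1 and EPHB2 belonged to none. The lists were chosen with earlier results of these data known, so this share does not show that passing genes concentrate in these functions.

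Each subunit was then set beside the shared PBS libraries. Of 13512 genes 20 passed for S100A9 against PBS (0.148%) and 1 for S100A8 against PBS (0.00740%), namely C4B. Summed with C4A, the pair did not pass, with a log2 difference from PBS of -0.13 after S100A8 (95% interval -0.52 to 0.26). For CXCL8 the mean was 34.0 CPM in PBS, and the log2 difference from PBS was 1.33 after S100A9 and -0.02 after S100A8. SOD2 stood at 288 CPM in PBS, with 0.83 after S100A9 and 0.02 after S100A8. LCN2 stood at 6.25 CPM, with 3.15 and -0.14. For these 3 genes the S100A8 mean lay near the PBS mean and the S100A9 mean far above both. The 95% interval of S100A8 minus PBS held 0 for 22 of the 25 genes, the exceptions being IL6, CFB and C4B. The 25 genes were chosen by a test on the same S100A8 and S100A9 libraries, so these values are no independent support.

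IL6 was at 6.02 CPM in PBS, and its log2 difference from PBS was 1.30 after S100A9 and 0.36 after S100A8 (95% interval 0.06 to 0.66), which did not pass adjustment. CSF2 was at 2.69 CPM in PBS, with 1.48 after S100A9 and 0.24 after S100A8. CFB was at 14.6 CPM, between the subunits, with 0.45 after S100A9 (adjusted p = 0.063) and -0.22 after S100A8. C4B alone stood higher in PBS (2.14 CPM) than after either subunit, with -0.53 after S100A9 and -2.73 after S100A8 (adjusted p = 0.033 for the latter). C4A went the other way after S100A8, at 0.79 from PBS, which did not pass adjustment. ID2 and DDX60L lay at -0.29 and -0.23 after S100A9 and at 0.06 and 0.06 after S100A8, and neither passed against PBS. For GDF15, DRAM1 and ADAMTS9 the difference from PBS was 0.19, 0.19 and 0.32 after S100A9 and -0.08, -0.06 and -0.08 after S100A8.

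**Figure D5:**
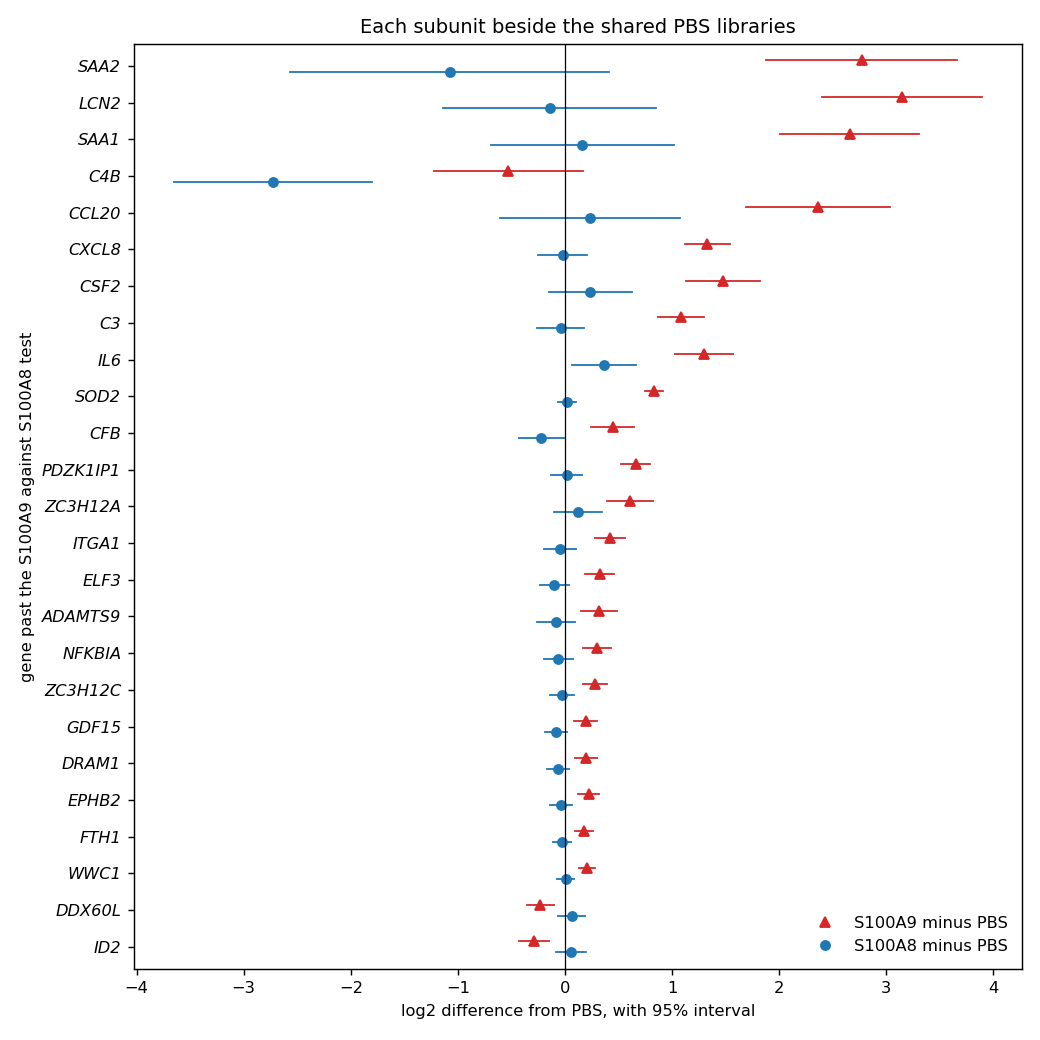
Log2 difference from the 3 PBS libraries (horizontal axis) with 95% intervals for S100A9 (red triangles) and S100A8 (blue circles), for the 25 genes. The S100A8 intervals hold 0 for 22 genes, while C4B lies at -2.73 after S100A8. The sum of C4A and C4B, not drawn, lies at -0.13 after S100A8.

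Levels after the S100A8/S100A9 preparation were set beside the subunits in the same way. Between S100A9 and the preparation 34 of 13512 genes passed edgeR's test (0.252%), and between the preparation and PBS 0 passed, with 757 at an unadjusted p under 0.05. CXCL8 was at 35.1 CPM after the preparation, SOD2 at 292 CPM, LCN2 at 5.00 CPM and C3 at 78.4 CPM. CCL20 was at 0.283 CPM, the lowest of the 4 groups. NFKBIA was at 46.3 CPM, above the S100A8 mean of 39.3 CPM and below the S100A9 mean of 50.6 CPM, and it did not pass between S100A9 and the preparation (log2 difference 0.13, adjusted p = 0.70). WWC1 likewise lay between, at 205 CPM (0.13, adjusted p = 0.32).

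No gene for a receptor or adaptor of the added proteins passed. TLR4 was at 3.40, 2.50 and 3.72 CPM after S100A8 and 2.22, 2.73 and 3.02 CPM after S100A9, overlapping ranges with a log2 difference of -0.27 (95% interval -0.70 to 0.17, adjusted p = 0.85). AGER, which encodes RAGE, was at 1.88, 2.62 and 2.55 CPM against 1.87, 3.19 and 2.36 CPM (0.08, 95% interval -0.42 to 0.58, adjusted p = 0.97). Its sign turned to -0.05 without S100A8 replicate 1 and to -0.15 without S100A9 replicate 2. Of 16 tested receptor and adaptor genes 0 passed, with 1 higher at an unadjusted p under 0.05 and a median of 0.07. Of 11 tested S100 genes 0 passed, and 0 had an unadjusted p under 0.05.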

How the data were processed

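RNA of 12 HK-2 libraries in 4 groups of 3 was analysed from 1 deposited table of genes. Each library has a count column and an FPKM column, per the file headers. These deposited values are expected counts, not always whole (12.0% of entries were fractional), and were rounded here. FPKM is the authors' normalization for gene length and depth. Which aligner and counting tool were used is not given in the sources at hand. The submitters' processing notes list GRCm38 and mm10, which are mouse builds, although the 20286 IDs are human Ensembl IDs, so the build behind the counts is not known. Of the IDs, 20228 were named through a gene name table, 50 through GENCODE 29 on GRCh38 (also the source of gene coordinates and exons), and 8 had no name.

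Counts were tested with edgeR 4.0.16 in R 4.3.3 after filterByExpr (minimum count 10, 13512 genes) and TMM scaling. A robust quasi-likelihood model was fitted to all 12 libraries with 4 group coefficients (8 residual degrees of freedom, common biological coefficient of variation 4.65%). All p-values are two-sided and were adjusted by Benjamini-Hochberg across the genes tested, with a threshold of 0.05. Each SE is the log2 fold change over the root of its F statistic, and 95% intervals use the matching t quantile. Levels are CPM after TMM scaling. Counting intervals and floors (3 counts) cover counting error only. The fit was tested on simulated data with known changes. It recovered 31 of 50 genes changed 1.25-fold and 50 of 50 changed 2-fold, and 8 of its 183 calls were unchanged genes. The simulation gave every gene the same spread, had no replicate effect and changed no gene of low count. It therefore does not check calls on low-count genes such as SAA2 and C4B.

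Named genes were those past the threshold, the 3 members of each list with the smallest p, the 4 nearest outside it, and TLR4, AGER, S100A8 and S100A9. The comparison, the gene lists and this rule were chosen with earlier results of these data known. Alternatives were the replicate block, DESeq2 size factors, no filter, DESeq2 1.42.0 (Wald test), the 6 libraries alone, a minimum change of 2-fold, limma 3.58.1 on log2(FPKM + 1), no robust option, summed gene pairs and leaving out each library. Promoter sequences are from RefSeq (GRCh38.p14), matched by symbol. Some genes of the marker lists are not reported here by name.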

Additional observations from a re-analysis of the deposited data

How the results depend on the processing

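The count of genes past the test (25, with 23 higher and 2 lower) rested on the choices as follows. With the replicate number as a block it was 69 (54 higher, 15 lower), with 38 list members, 7 cytokine and chemokine genes and 6 NF-kB targets higher. The 69 held all 25. CXCL2 (adjusted p = 0.0047), ID3 (0.0037), CSF1, CPD, SERPINA1, P4HA2, F2R, KRT7, CCNB1, CRYAB, TNIP1 and TNFAIP2 passed too (0.0018 to 0.048). MT2A, AURKA, GPX1, SLC11A2 and CXCL5 still did not. Same-numbered S100A9 and S100A8 libraries correlated at 0.091, 0.107 and -0.0009 in their deviations from group means. Libraries of unlike number correlated at -0.111 to 0.021. For 2 of 3 S100A9 libraries the highest correlation was with the S100A8 library of their own number. The labels state no pairing, and whether the replicate number marks a shared batch was not tested. With limma on log2(FPKM + 1) the count was 10 (10 higher, 0 lower), with 10 list members, 1 complement gene and 1 NF-kB target higher, and the 10 were SOD2, PDZK1IP1, CXCL8, SAA1, SAA2, CSF2, IL6, C3, CCL20 and LCN2. Testing for a change of more than 2-fold left 2 genes, SAA1 and SAA2 (2 higher, 0 lower, 2 list members), and 0 cytokine, 0 complement and 0 NF-kB target genes. On the 6 libraries alone 1 gene was lower, neither ID2 nor DDX60L, and without the robust option 1 was lower, ID2. DESeq2's Wald test called 28 genes, 24 of them among the 25. Leaving out each library in turn gave 14 to 24 genes, 14 to 22 higher and 0 to 2 lower, 14 to 21 list members, 4 cytokine genes in each fit, 2 complement genes in each fit, 2 to 4 acute-phase genes and 2 to 3 NF-kB targets. The low of 14 came without S100A8 replicate 2 and without S100A9 replicate 3, and without S100A8 replicate 3 the list members were 15. The 12 genes SOD2, PDZK1IP1, CXCL8, SAA1, SAA2, CSF2, IL6, C3, ITGA1, CCL20, CFB and ELF3 passed in all 6 of these fits, while ZC3H12A and C4B passed in 0. AGER, which never passed, changed sign with limma on log2(FPKM + 1) (-0.0029), without S100A8 replicate 1 (-0.054) and without S100A9 replicate 2 (-0.15), with left-out fits from -0.15 to 0.24. The cause of these shifts was not tested, beyond the smaller number of samples where libraries were left out. Depth limits SAA1, SAA2, CCL20 and C4B, which rest on 6 to 32 counts over the 3 S100A8 libraries.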
